A study of Homo sapiens with 4 samples.

Results

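The interferon-stimulated genes described here are 29 named genes, out of 58870 listed in each deposited table, whose transcripts are known to accumulate when cells sense interferon. They were taken by symbol, by a rule that uses no measured value, though earlier results of these data were known when they were chosen. All 29 were measured well enough to be tested, among 16749 tested genes. They were followed in BJ cells, a line of human foreskin fibroblasts, in 4 RNA libraries. The 2 control libraries came from cells given the solvent DMSO, and the 2 Dox libraries from cells given an agent named in the labels only as Dox, at 250 nM. The titles also call the control libraries young and the Dox libraries aged. Exposure lasted 24 hours, and the cells then had 10 days in which to senesce, going by the series design; the samples' protocol can also be read as placing the 10 days before the exposure. No allele or transgene is named for either group. The series title concerns the inactivation of centromeres during ageing and its rescue in human cells, and the comparison asks which transcripts differ between the Dox and the DMSO cultures. Whether replicates were separate cultures is not stated, so a p-value reflects the spread among the 4 libraries alone.

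Type I interferons are secreted proteins that bind a receptor of IFNAR1 and IFNAR2 chains. The receptor's kinases JAK1 and TYK2 phosphorylate STAT proteins, among them STAT2, which acts with IRF9 on a DNA element called the interferon-stimulated response element (ISRE) before the genes that respond. The products of these genes bind viral RNA, block translation, trap virus particles at membranes, edit the pool of nucleotides or act back on interferon signalling itself. Fibroblasts carry the receptor and can both make and answer interferon.

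In the Dox libraries 20 of the 29 genes were higher and 0 were lower by edgeR (quasi-likelihood test, p-values adjusted by Benjamini-Hochberg over all tested genes, threshold 0.05). Over all tested genes, 16.5% were higher and 13.8% were lower. The median log2 fold change of the 29 was 0.84, a 1.79-fold rise, against a median of -0.0023 over all tested genes. Those that rose were all 3 IFIT genes, all 4 of the OAS family, both MX genes, all 3 genes of the ISG15 system, the RNA sensors DDX58 and IFIH1, and IFI6, IFI27, BST2, RSAD2, IFI44 and IFI44L. The 3 transcription factors among them, STAT2, IRF7 and IRF9, did not pass, nor did IFITM1, ISG20, CMPK2, IFI35, XAF1 and PARP9. Of the 29, 13 were higher by at least 2-fold, as were 6.23% of all tested genes. In 22 of them both Dox libraries lay above both control libraries, as in 34.6% of all tested genes. In 1 gene, ISG20, both Dox libraries lay below, and in 6 the groups overlapped. For these patterns the share of all tested genes is not given here. A fit without 1 library leaves a lone library in its group, so its p-values take their spread from the other group alone. The Dox pair varied more than the control pair, as given below, and p-values without a Dox library leave that spread out. Without control replicate 1 the count of higher members was 15, and without control replicate 2 it was also 15, while 8.25% and 7.79% of all genes were higher. The 0 lower members compare with 0 at an unadjusted p under 0.05 in edgeR, 0 by DESeq2 and by limma after adjustment, and 1 when either Dox library was left out (XAF1 without replicate 1, IRF9 without replicate 2).

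**Figure D1:**
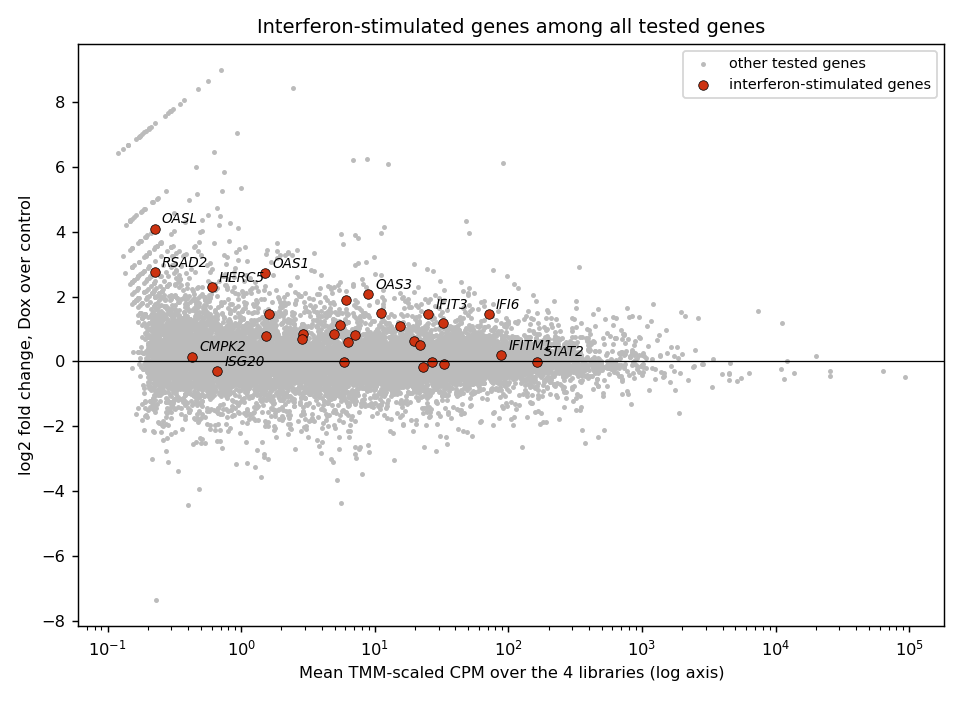
Each point is a tested gene, placed by its mean level over the 4 libraries (TMM-scaled CPM, log axis) and by its log2 fold change, Dox over control; red points are the 29 interferon-stimulated genes and grey points the others. The red points lie mostly above 0 across the range of levels, while STAT2, the rightmost red point, lies at -0.01.

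Expected counts summed to between 42744729 and 47798920 per library, and the 29 genes together held 20523 and 22741 of them in control and 28884 and 31827 in Dox. The replicates of each group differed by more than sampling noise, with a chi-square per degree of freedom of 2.4 in the control pair and 60.5 in the Dox pair. Over the members alone it was 0.639 and 10.0. Dox replicate 1 over Dox replicate 2 varied with the GC content of transcripts (Spearman rho = -0.62 across 16717 genes, which share these libraries), whereas rho was -0.027 for Dox over control. All 10 fibroblast markers were detected, with summed counts of 1197009 and 1324677 in control and 886450 and 1150545 in Dox. The fibroblast markers did not move together. PDGFRB had 19613 and 21677 counts in control and 8695 and 11193 in Dox, and PDGFRA had 7253 and 7949 in control and 3996 and 4223 in Dox. COL1A1, COL1A2 and COL3A1 also had fewer counts in both Dox libraries. DCN, LUM, THY1 and S100A4 had more, with LUM at 58663 and 65928 counts in control and 84897 and 82086 in Dox. For FAP the groups overlapped. Of 12 leukocyte markers, 4 were at 0 in every library (CD3D, CD3E, NKG7 and CLEC4C), and the summed counts of the list were 25.5 and 36 in control and 120.5 and 127 in Dox. Most of that difference was PTPRC, a leukocyte phosphatase, with 9, 11, 90 and 83 counts. Endothelial markers summed to 4 and 8 counts in control and 24 and 30 in Dox. The leukocyte and endothelial sums rose with the interferon-stimulated genes, while the fibroblast sum was lower in Dox. Keratinocyte markers summed to 435 and 483 counts in control and 541 and 501 in Dox. Melanocyte markers summed to 13 and 14 counts in control and 12 and 20 in Dox. The part of these marker levels in the results was not tested. In bulk RNA, fewer cells of a type and less RNA per cell cannot be told apart.

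On a scale that allows for transcript length (TPM, which adds up to the same total in each library), 4 genes made up between 76.1% and 77.4% of the summed level of the 29 in each library. They were IFITM1, a membrane protein that restricts virus entry; IFI6, a small membrane protein induced by interferon; the transcription factor STAT2; and ISG15, a ubiquitin-like modifier. In control replicate 1 their TPM values were 48.25, 17.4, 13.2 and 11.2. At the other end, OASL was listed at 0 TPM in both control libraries, RSAD2 at 0.01 in both, and HERC5 at 0.02 and 0.03. Of these 4 abundant genes only IFI6 and ISG15 rose, and IFI6 went from 14.7% and 14.4% of the members' TPM in control to 28.2% and 27.0% in Dox. TPM served here to compare genes within a library, since 4 small RNAs (RN7SL1, RN7SL2, SNORD3A and RN7SK) took between 52.4% and 61.6% of it. It was compared between libraries only as a share of the members' sum, as for IFI6, and where the limma alternatives are described. Otherwise, depth-scaled counts (CPM, with edgeR's TMM factors) were used between libraries. On that scale the 29 genes summed to 492 and 485 CPM in control and 675 and 702 CPM in Dox, and the 25 outside the 4 abundant ones summed to 188 and 185 CPM in control and 303.5 and 299 CPM in Dox.

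**Figure D2:**
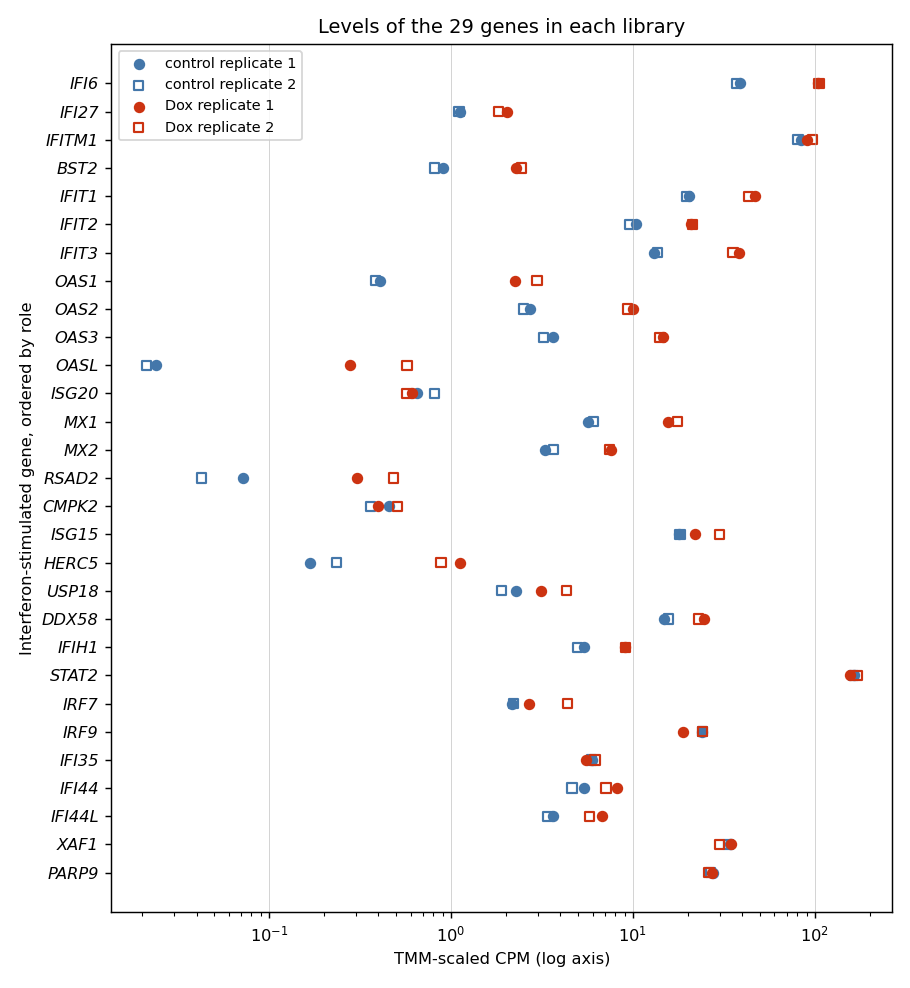
Levels of the 29 genes in each of the 4 libraries, as TMM-scaled CPM on a log axis, with genes in order of role; circles are replicate 1, open squares replicate 2, blue control and red Dox. The OAS genes, HERC5, OASL and RSAD2 show the widest gaps between blue and red, and STAT2, IFI35, XAF1 and PARP9 show blue and red together.

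The promoters of the genes were read beside these values, since the factors of the pathway act there. RefSeq promoter windows on build GRCh38.p14, from 250 bases before to 50 after a transcription start, matched 23 of the 29 genes, in 33 windows. IFIT2, OAS2, OASL, MX2, USP18 and IRF7 were not matched. The ISRE was searched as GAAA, any 2 bases and GAAA again, and the gamma-activated site, an element known from interferon gamma responses, as TTCNNNGAA. Both were searched on either strand, so that an ISRE on the other strand reads TTTC, any 2 bases and TTTC. An ISRE and a gamma-activated site shared bases in 5 of the 33 windows. The ISRE letters stood in 60.6% of the members' windows and in 3.57% of all 35116 windows. They stood in at least 1 window of 13 of the 15 matched genes that rose, and of 3 of the 8 that did not pass (IFITM1, ISG20 and PARP9). Over all genes with windows the share was 4.38%. The members were named as genes known to respond to interferon, and the difference between those that rose and the others was not tested. The gamma-activated site letters stood in 24.2% of the members' windows and in 7.66% of all windows. A match describes the letters of a window, not a bound site, and the absence of one, as in OAS1, DDX58, CMPK2, STAT2, IRF9, IFI35 and XAF1, says only that these letters are not in that window.

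The stretches printed lie before the starts of IFI6, OAS3 and IFIT3, the 3 members with the smallest adjusted p whose windows hold the ISRE. Each is written 5′ to 3′ on the gene's strand, from 250 bases before the RefSeq start up to the first base that a GENCODE 29 exon covers, with the ISRE letters in capitals.
IFI6 chr1:27672219-27672442 (-): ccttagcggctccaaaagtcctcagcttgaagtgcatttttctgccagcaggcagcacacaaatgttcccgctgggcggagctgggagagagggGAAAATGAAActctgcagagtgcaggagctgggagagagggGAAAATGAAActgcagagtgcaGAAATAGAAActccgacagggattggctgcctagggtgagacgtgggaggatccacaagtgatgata
OAS3 chr12:112938224-112938351 (+): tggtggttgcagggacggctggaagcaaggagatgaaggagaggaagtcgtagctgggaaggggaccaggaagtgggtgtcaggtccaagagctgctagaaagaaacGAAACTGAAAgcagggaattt
IFIT3 chr10:89327747-89327893 (+): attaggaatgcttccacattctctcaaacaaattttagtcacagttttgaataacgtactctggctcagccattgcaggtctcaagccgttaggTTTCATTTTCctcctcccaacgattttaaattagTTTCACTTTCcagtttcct
The IFI6 stretch holds 3 matches, which begin 156, 115 and 93 bases before the start, and the first 2 have the same letters (GAAAATGAAA). In OAS3 the match shown begins 143 bases before the start (GAAACTGAAA), and a further one at 12 bases lies in the part not printed. The matches in the IFIT3 stretch, at 156 and 122 bases before that start, read on the other strand (TTTCATTTTC and TTTCACTTTC). A second IFIT3 window, at a later start, holds 2 more, at 94 and 51 bases before it, and is not printed.

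The membrane effectors come first among the products. IFI6 had 38.7 and 37.2 CPM in control and 104 and 105 CPM in Dox. Both Dox values lay far above both control values, and the difference was a log2 fold change of 1.46 (SE 0.07, edgeR adjusted p = 0.000114), the smallest p among the 29. BST2, which encodes tetherin, a protein that holds budding virus particles at the cell surface, had 0.911 and 0.811 CPM in control and 2.27 and 2.45 CPM in Dox. It rose by the same measure by 1.45 (SE 0.19, edgeR adjusted p = 0.00316). IFI27, a small membrane protein often used as a marker of interferon exposure, had 47 and 52 counts in control and 87 and 83 in Dox. Its rise was smaller, at 0.79 (SE 0.19, edgeR adjusted p = 0.0249), and did not pass when either control library was left out (edgeR adjusted p = 0.132 without control replicate 1 and 0.156 without control replicate 2) or in the DESeq2 Wald test (adjusted p = 0.1316). IFITM1 had 83.8 and 80.9 CPM in control and 90.7 and 97.1 CPM in Dox. The Dox libraries were the higher ones, but by a log2 fold change of only 0.19 (SE 0.08, edgeR adjusted p = 0.107). Against the mean control CPM, the log2 ratio of IFITM1 was 0.14 in Dox replicate 1 and 0.24 in Dox replicate 2. Exons of IFITM1 share 351 bases with those of its neighbour IFITM2 on the same strand, so the split of reads between them is uncertain.

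The 3 IFIT genes encode proteins that bind viral RNA through tetratricopeptide repeats and hold it away from the ribosome. They lie within chr10:89283694-89406486 (coordinates of GENCODE 29, GRCh38). IFIT3 had 13.1 and 13.7 CPM in control and 38.1 and 35.5 CPM in Dox, IFIT1 had 20.3 and 19.8 CPM in control and 47.1 and 43.3 CPM in Dox, and IFIT2 had 10.4 and 9.6 CPM in control and 21.0 and 21.2 CPM in Dox. In each of the 3 the groups stood well apart and the libraries within a group were close. The log2 fold changes were 1.46 for IFIT3 (SE 0.09, edgeR adjusted p = 0.00019), 1.18 for IFIT1 (SE 0.08, edgeR adjusted p = 0.000325) and 1.08 for IFIT2 (SE 0.09, edgeR adjusted p = 0.000658). The next gene of the family along the chromosome, IFIT5, which is not one of the 29, had 1259 and 1456 counts in control and 1282 and 1234 in Dox. Its log2 fold change was -0.10 (edgeR adjusted p = 0.421). IFIT5 was picked after its values were seen. IFIT2 shares 65 exonic bases with LIPA on the opposite strand, and LIPA was itself higher in Dox (1845, 2091, 3560 and 3462 counts). Whether the counting used strand is not given in the sources used here.

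The 2′-5′ oligoadenylate synthetases sense double-stranded RNA and make a small oligonucleotide messenger in answer. Together with the related OASL they held 4 of the 6 largest log2 fold changes among the members. OAS1 had 17 and 18 counts in control and 96 and 135 in Dox, a log2 fold change of 2.72 (SE 0.26, edgeR adjusted p = 0.000884). OAS3 had 152 and 151 counts in control and 624 and 640 in Dox, with a log2 fold change of 2.07 (SE 0.12, edgeR adjusted p = 0.000157). OAS2 had 114 and 117 counts in control and 427 and 422 in Dox, with a log2 fold change of 1.88 (SE 0.13, edgeR adjusted p = 0.000323). These 3 genes stand in 1 row at chr12:112906777-113011723, in the order OAS1, OAS3, OAS2, and no value of a Dox library came near that of a control library. OASL, a relative without synthetase activity, lies elsewhere on the chromosome and was nearly absent from the control libraries, with 1 count in each and 12 and 26 counts in Dox. The ratio of its depth-scaled counts was 19.1, with an exact 95% interval of 4.94 to 163.5 that covers counting error only (edgeR adjusted p = 0.0080). ISG20, an exonuclease that degrades RNA, went against the others of its group, with 27 and 38 counts in control and 26 in each Dox library. That difference did not pass (log2 fold change -0.31, SE 0.27, edgeR adjusted p = 0.428).

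MX1 and MX2 are dynamin-like GTPases that block the entry of viral nucleic acid to its site of copying. They are neighbours at chr21:41361943-41459214. MX1 had 5.66 and 6.08 CPM in control and 15.5 and 17.5 CPM in Dox, a log2 fold change of 1.49 (SE 0.11, edgeR adjusted p = 0.000402). MX2 had 3.31 and 3.65 CPM in control and 7.62 and 7.47 CPM in Dox, a log2 fold change of 1.12 (SE 0.13, edgeR adjusted p = 0.00189). In both genes the gap between the groups was wider than the gap within either group.

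RSAD2, which encodes viperin, an enzyme that makes a chain-ending nucleotide, and CMPK2, a mitochondrial nucleotide kinase, lie head to head at chr2:6840570-6898239. RSAD2 had 3 and 2 counts in control and 13 and 22 in Dox. The ratio of its depth-scaled counts was 7.04, with an exact 95% interval of 2.75 to 23.0 (counting error only), and it passed in edgeR (adjusted p = 0.0119) but not in the DESeq2 Wald test (adjusted p = 0.0505). CMPK2 had 19 and 17 counts in control and 17 and 23 in Dox. Its groups overlapped, and its log2 fold change was 0.15 (SE 0.32, edgeR adjusted p = 0.751). The pair is set side by side in sequence because the genes share a locus and only RSAD2 passed; the difference between their changes was not tested. The stretches come from the RSAD2 window that holds the ISRE and from 1 of the 3 CMPK2 windows, none of which does. Both are written 5′ to 3′ on the gene's own strand, from 250 bases before the RefSeq start up to the first base that a GENCODE 29 exon covers, with the ISRE in capitals.
RSAD2 chr2:6877527-6877664 (+): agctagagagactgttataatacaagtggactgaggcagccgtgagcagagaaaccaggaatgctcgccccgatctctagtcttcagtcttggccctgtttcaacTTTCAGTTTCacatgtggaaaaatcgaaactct
CMPK2 chr2:6866046-6866157 (-): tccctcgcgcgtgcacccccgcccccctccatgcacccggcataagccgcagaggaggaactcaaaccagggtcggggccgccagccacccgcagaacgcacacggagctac
The RSAD2 match begins 145 bases before that start. A second RSAD2 window, at an earlier start (chr2:6865635-6865934), holds no match. It overlaps the CMPK2 window whose stretch is printed (chr2:6865858-6866157), so the RSAD2 and CMPK2 windows that face each other both lack the ISRE letters. The RSAD2 stretch printed belongs to the later start.

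ISG15 is a ubiquitin-like protein that is joined to other proteins, HERC5 is the ligase that joins it, and USP18 is the protease that removes it and that also restrains the receptor. HERC5 changed most, from 7 and 11 counts in control to 48 and 40 in Dox (log2 fold change 2.29, SE 0.33, edgeR adjusted p = 0.00423). USP18 had 94.7 and 89 counts in control and 133.5 and 195.8 in Dox (log2 fold change 0.84, SE 0.21, edgeR adjusted p = 0.0294). ISG15, the substrate, had 748 and 852 counts in control and 934 and 1354 in Dox (log2 fold change 0.52, SE 0.15, edgeR adjusted p = 0.0445). The Dox libraries of USP18 and ISG15 lay apart from each other, with replicate 2 the higher in both. Neither call held without a control library: for USP18 the edgeR adjusted p was 0.0575 without control replicate 1 and 0.170 without control replicate 2, and for ISG15 it was 0.147 and 0.141. USP18 has a near-identical copy, USP41, with at most 2.2 expected counts in a library, and the split of reads between them is uncertain. Of the 4 genes of ISG15 conjugation outside the 29, HERC6 and TRIM25 rose and 0 fell, while 16.5% of all tested genes rose and 13.8% fell. HERC6, a relative of HERC5, had 114 and 133 counts in control and 346 and 355 in Dox (log2 fold change 1.51, SE 0.13, edgeR adjusted p = 0.00066), and TRIM25, a ligase that acts on the sensor RIG-I, changed by 0.73 (SE 0.07, edgeR adjusted p = 0.00104).

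The RNA sensors RIG-I (DDX58) and MDA5 (IFIH1) are helicases that detect viral RNA in the cytoplasm and start interferon production through MAVS. DDX58 had 14.8 and 15.7 CPM in control and 24.5 and 23.0 CPM in Dox. IFIH1 had 5.37 and 4.95 CPM in control and 9.0 and 9.15 CPM in Dox. Both rose by less than 2-fold, with log2 fold changes of 0.64 (SE 0.09, edgeR adjusted p = 0.00367) and 0.82 (SE 0.12, edgeR adjusted p = 0.00398). For DDX58 the edgeR adjusted p was 0.0551 without control replicate 1.

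The 3 transcription factors did not pass in edgeR, and 1 of them, IRF7, was higher at an unadjusted p under 0.05. By the DESeq2 Wald test and by limma 0 passed. STAT2 had 163 and 164 CPM in control and 155.5 and 170.4 CPM in Dox, so that the control values lay between the Dox values (log2 fold change -0.01, SE 0.08, edgeR adjusted p = 0.968). IRF9, a DNA-binding partner of STAT2, had 24.0 CPM in both control libraries and 18.9 and 24.1 CPM in Dox (log2 fold change -0.16, SE 0.13, edgeR adjusted p = 0.379). Dox replicate 1 alone stood apart there, and without Dox replicate 2 the log2 fold change of IRF9 was -0.35, which rests on Dox replicate 1 alone. IRF9 shares 1838 exonic bases with the transcript AL136295.5 on the same strand. IRF7, the factor that amplifies interferon production, had 2.18 and 2.20 CPM in control and 2.69 and 4.37 CPM in Dox. Both Dox values were above the control values, but they were far from each other (log2 fold change 0.69, SE 0.25, edgeR adjusted p = 0.0852). With the replicate number as a block the edgeR adjusted p of IRF7 was 0.0307. IRF7 had the highest transcript GC content of the 29, at 66.9%, against a median of 49.8% over the members.

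Of the remaining 5 members, IFI44 and IFI44L rose and IFI35, XAF1 and PARP9 did not pass. IFI44L, next to IFI44 at chr1:78619922-78664078, had 151 and 160 counts in control and 291 and 263 in Dox (log2 fold change 0.84, SE 0.15, edgeR adjusted p = 0.00824). IFI44 had 226 and 217 counts in control and 350 and 323 in Dox (log2 fold change 0.61, SE 0.14, edgeR adjusted p = 0.0233). In both genes Dox replicate 1 was the highest library. The call of IFI44 was lost when a control library was left out (edgeR adjusted p = 0.076 for replicate 1 and 0.232 for replicate 2), and that of IFI44L when control replicate 2 was (0.0707). XAF1, a pro-apoptotic partner of the inhibitor XIAP, had 34.1 and 33.5 CPM in control and 34.5 and 30.0 CPM in Dox (log2 fold change -0.07, SE 0.09, edgeR adjusted p = 0.619). Its log2 ratio to the mean control CPM was 0.03 in Dox replicate 1 and -0.17 in Dox replicate 2. IFI35 had 5.94 and 5.93 CPM in control and 5.54 and 6.19 CPM in Dox (log2 fold change -0.02, SE 0.13, edgeR adjusted p = 0.936). PARP9, which forms a complex with the ligase DTX3L, had 27.5 and 26.7 CPM in control and 27.1 and 26.2 CPM in Dox (log2 fold change -0.02, SE 0.08, edgeR adjusted p = 0.842). The groups overlapped in these 3 genes. DTX3L, whose exons overlap those of PARP9 on the opposite strand by 217 bases, was higher by 0.32 (SE 0.08, edgeR adjusted p = 0.0278), and not without control replicate 1 (0.206) or control replicate 2 (0.356). Its choice followed a look at its values.

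**Figure D3:**
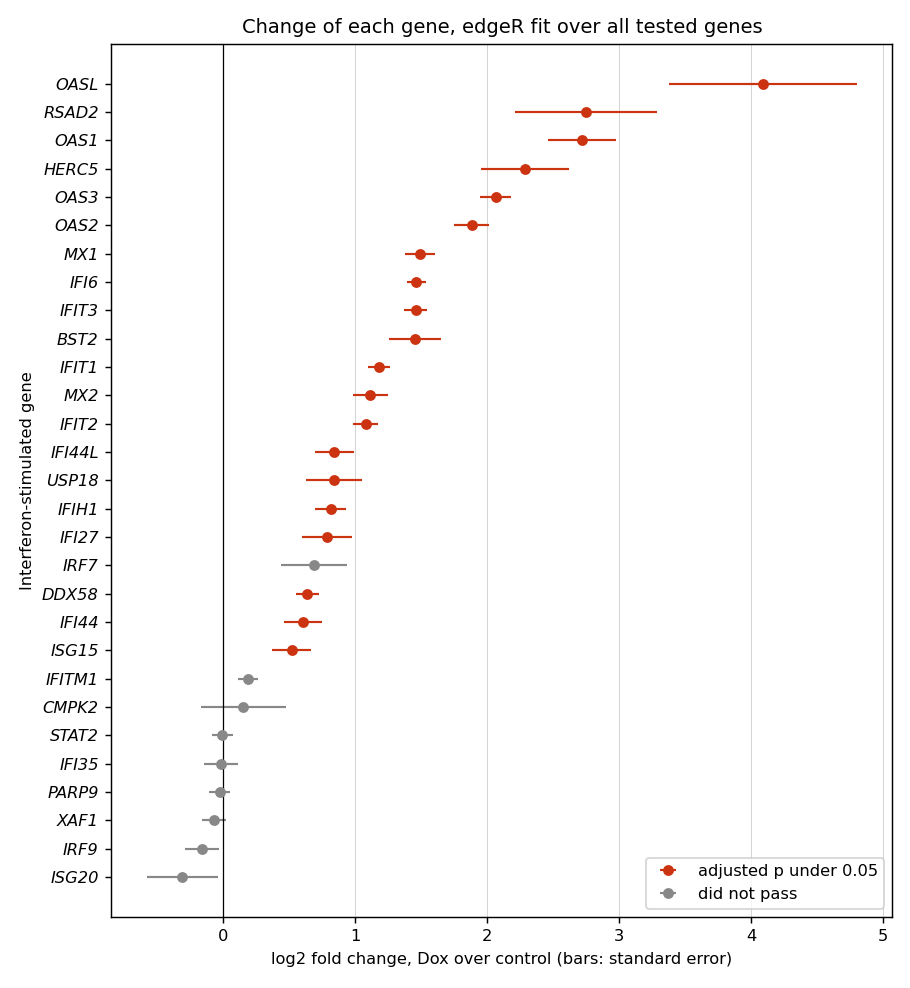
Log2 fold change of each of the 29 genes, Dox over control, in order of size, with bars of 1 standard error from the edgeR fit over all tested genes; red points passed an adjusted p of 0.05 and grey points did not. The 6 largest changes are those of OASL, RSAD2, OAS1, HERC5, OAS3 and OAS2, and 9 grey points lie from -0.31 (ISG20) to 0.69 (IRF7).

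The Dox libraries were also set against each other member by member. Relative to the mean of the control libraries, the change was larger in Dox replicate 1 for 13 of the 29 genes and larger in Dox replicate 2 for 16. OASL differed most, at 3.63 on the log2 scale in replicate 1 and 4.66 in replicate 2, with 12 and 26 counts. IRF7 followed the same order at 0.30 and 1.00, as did ISG15 at 0.28 and 0.73. The members that passed had a median transcript GC content of 47.6% and those that did not of 52.5%, and the tested genes as a whole of 47.7%. With offsets that remove each library's trend with GC content, 22 of the 29 genes were higher, the 20 above with IFITM1 and IRF7. The share of all tested genes called higher also rose with these offsets, from 16.5% to 23.0%. The part of GC content in the results of single genes was not tested further.

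**Figure D4:**
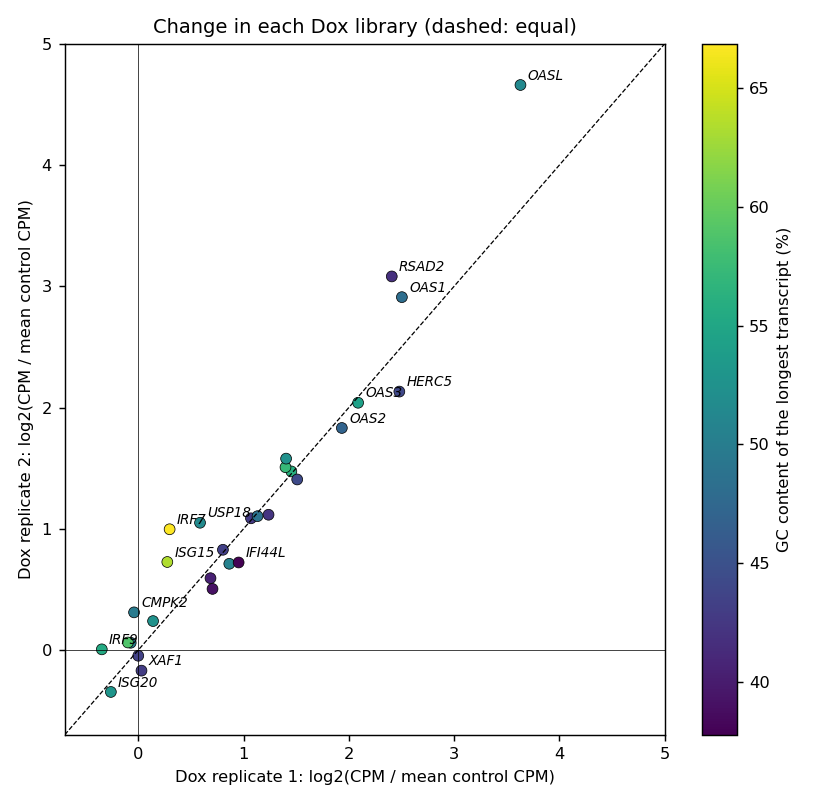
Change of each of the 29 genes in Dox replicate 1 (horizontal axis) and in Dox replicate 2 (vertical axis), each as the log2 ratio of its CPM to the mean control CPM, coloured by the GC content of the longest transcript; the dashed line marks equal change. Most genes lie near the line, and IRF7 (0.30 and 1.00) and ISG15 (0.28 and 0.73), with high GC content, lie above it.

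The genes that act before the interferon-stimulated genes were taken as 6 lists, from the ligands to ISG15 conjugation, with 66 genes, of which 41 were tested. Beside 16.5% of all tested genes higher and 13.8% lower, 10 of the 41 were higher and 4 were lower. Without control replicate 1 these counts were 4 and 1, and without control replicate 2 also 4 and 1, while without Dox replicate 1 they were 21 and 8 and without Dox replicate 2 they were 17 and 15. Counts over all tested genes also fell without a control library and rose without a Dox library. Among 21 interferon ligand genes only IFNE had enough counts to be tested. IFNE, a type I interferon known from epithelium of the reproductive tract, had 122 and 125 counts in control and 252 and 193 in Dox (log2 fold change 0.86, SE 0.20, edgeR adjusted p = 0.0212). Without control replicate 1 its edgeR adjusted p was 0.0585, and without control replicate 2 it was 0.110. IFNB1, the interferon that fibroblasts are best known to make, had 0 counts in both control libraries and 2 and 0 in Dox, too few to compare.

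Of the 8 receptor and kinase genes tested, IFNAR1 rose and IL10RB and IFNGR1 fell, while 16.5% of all tested genes rose and 13.8% fell. IFNAR1 had 2799 and 3107 counts in control and 4438 and 3813 in Dox (log2 fold change 0.49, SE 0.11, edgeR adjusted p = 0.0189). IFNAR2, its partner chain, had 423 and 436 counts in control and 711 and 531 in Dox and did not pass (log2 fold change 0.54, SE 0.17, edgeR adjusted p = 0.0591). IL10RB, a chain shared by the receptors of type III interferon and interleukin-10, fell by 0.35 on the log2 scale (SE 0.08, edgeR adjusted p = 0.022), and IFNGR1, a chain of the interferon gamma receptor, fell by 0.28 (SE 0.07, edgeR adjusted p = 0.0287). The calls of these 3 were lost without either control library, with edgeR adjusted p of 0.104 and 0.123 for IFNAR1, 0.165 and 0.325 for IL10RB, and 0.345 and 0.328 for IFNGR1. Neither kinase passed: the log2 fold change was -0.12 for JAK1 (edgeR adjusted p = 0.25) and -0.13 for TYK2 (edgeR adjusted p = 0.505). Against the mean control CPM, the log2 ratios of JAK1 in Dox replicates 1 and 2 were -0.16 and -0.09. They were -0.35 and 0.06 for TYK2, and 0.77 and 0.27 for IFNAR2.

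Of 6 tested STAT and IRF genes outside the 29, 2 rose and 0 fell, beside 16.5% and 13.8% of all tested genes. IRF5, which was among those that rose, had 1 and 6 counts in control and 15 and 19 in Dox (log2 fold change 2.25, SE 0.59, edgeR adjusted p = 0.0327), and 0.0984 without control replicate 1. IRF3, which carries the signal of the sensors to the interferon genes, had 718 and 791 counts in control and 581 and 890 in Dox (log2 fold change -0.04, SE 0.17, edgeR adjusted p = 0.891). The control values of IRF3 lay between the Dox values, and its direction turned with the library left out: the log2 fold change was 0.20 without Dox replicate 1 (edgeR adjusted p = 0.0125) and -0.33 without Dox replicate 2 (6.41e-05). Among 8 tested restraints on the pathway, 0 rose and 0 fell by edgeR, with 3 higher and 1 lower at an unadjusted p under 0.05. By the DESeq2 Wald test 1 rose and 1 fell, and by limma on either TPM scale 0 did. SOCS1, a feedback inhibitor of the kinases, had 18 and 17 counts in control and 29 and 38 in Dox (log2 fold change 0.94, SE 0.29, edgeR adjusted p = 0.0547), and SOCS3 changed by -0.50 (SE 0.16, edgeR adjusted p = 0.0573); neither is named by the rule for genes, and both were picked for their values.

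In the sensing list, 4 of 14 tested genes rose and 2 fell, beside 16.5% and 13.8% of all tested genes. TLR3, a receptor for double-stranded RNA, went from 21 and 22 counts in control to 49 and 54 in Dox (log2 fold change 1.26, SE 0.24, edgeR adjusted p = 0.0114). SAMHD1, IFI16 and MAVS rose by 0.35, 0.30 and 0.26 (edgeR adjusted p = 0.0274, 0.0311 and 0.0392). RNASEH2A, the catalytic subunit of the enzyme that removes RNA from DNA, fell by 1.11 on the log2 scale, from 172 and 195 counts to 69.8 and 99 (SE 0.19, edgeR adjusted p = 0.00688), and RNASEH2B fell by 0.47 (SE 0.12, edgeR adjusted p = 0.0272). Among these 6 only RNASEH2A passed without each of the control libraries. TLR3 was lost without control replicate 2 (edgeR adjusted p = 0.0628), and the others without either, with the edgeR adjusted p of SAMHD1 at 0.330 and 0.221, of IFI16 at 0.303 and 0.301, of MAVS at 0.318 and 0.484 and of RNASEH2B at 0.146 and 0.175.

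A second list of 75 genes known to be induced by type I or type II interferon, none of them among the 29 and some of them also in the pathway lists, changed in both directions. Beside 16.5% of all tested genes higher and 13.8% lower, 24 of its 66 tested genes rose and 5 fell, with a median log2 fold change of 0.21. Without control replicate 1 these counts were 15 and 2, without control replicate 2 they were also 15 and 2, without Dox replicate 1 they were 42 and 11, and without Dox replicate 2 they were 34 and 15. With each library left out, the counts over all tested genes moved in the same direction as those of the list. The smallest adjusted p-values among the list genes that rose included those of HERC6, PML and TRIM25. PML, the protein that organises nuclear bodies, had 977 and 1024 counts in control and 1731 and 1922 in Dox (log2 fold change 0.87, SE 0.08, edgeR adjusted p = 0.000878). Those that fell included WARS, APOL6, GBP1 and TRIM34, the last of these picked after a look at its values. WARS, the cytosolic tryptophanyl-tRNA synthetase, went from 8511 and 9666 counts to 3675 and 3865 (log2 fold change -1.26, SE 0.07, edgeR adjusted p = 0.000149), and APOL6, an apolipoprotein L, from 2982 and 3451 to 1626 and 1649 (log2 fold change -0.96, SE 0.07, edgeR adjusted p = 0.000376). GBP1, a GTPase known above all as a target of interferon gamma, changed by -0.49 (edgeR adjusted p = 0.00432). Without control replicate 1 and without control replicate 2 the edgeR adjusted p was 0.0624 and 0.0890 for GBP1, and 0.181 and 0.231 for TRIM34. The interferon-induced chemokines were nearly absent, with CXCL9 at 0 counts in every library, CXCL10 and CXCL11 at 0 in control and 1 in each Dox library, and CCL5 at 0 in control and 5 and 8 in Dox; they too were picked with their values in view.

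The count of members that rose differed between the alternatives. With glmTreat, edgeR's test against a change of 1.5-fold, 13 of the 29 were higher, beside 4.7% of all tested genes. With limma on log2(TPM + 1) 6 were higher, beside 3.56% of all tested genes, and with limma on log2(TPM + 0.1) 9 were higher, beside 3.8%. A fold change on these TPM scales understates that of low genes. The summed TPM of the 29 was 118 and 119 in control and 147 and 250 in Dox. Dox replicate 2 lay above Dox replicate 1 in summed TPM and also in the share of the 4 small RNAs (61.6% against 52.4%). The part of either in these counts was not tested. Without Dox replicate 1, 22 were higher and XAF1 was lower, beside 27.0% of all genes higher, and without Dox replicate 2, 21 were higher and IRF9 was lower, beside 27.9%. Under all 15 alternatives 6 members passed: BST2, IFI6, IFIT3, OAS1, OAS2 and OAS3. The share of all tested genes that passed under all 15 is not given here, so this count has nothing to be set beside. MX1 missed only with limma on log2(TPM + 1) (adjusted p = 0.0597).

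**Figure D5:**
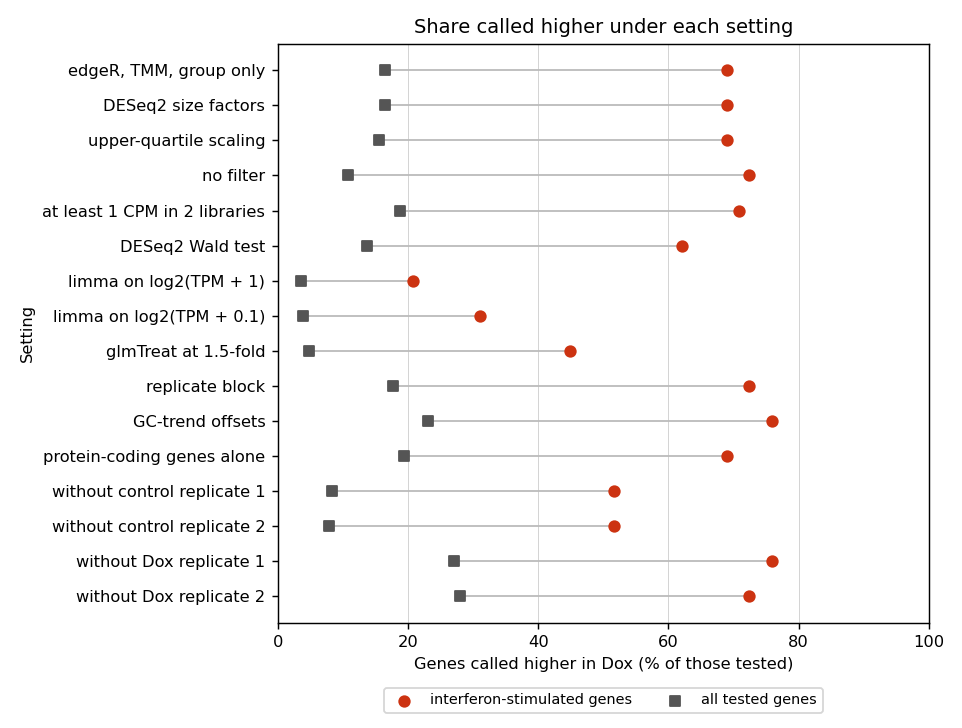
Share of genes called higher in Dox, in percent of those tested, for the 29 interferon-stimulated genes (red circles) and all tested genes (grey squares), in the edgeR fit used throughout (top) and under 15 alternatives. The red circle lies at 69.0% and the grey square at 16.5% in the top row, and the red circle lies to the right in every row, with its lowest value, 20.7%, for limma on log2(TPM + 1).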

How the data were processed

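Total RNA from 4 BJ fibroblast libraries (2 control, 2 Dox, grouped by the labels' titles and treatment) was read from gene tables. The submitters' processing notes name hg38, cutadapt, STAR, Picard and RSEM; versions, annotation and any strand setting are not given there. Per the file headers, the authors deposited RSEM's expected counts, which need not be whole, with TPM and FPKM values; FPKM was not used. The effective transcript lengths are also the authors' values, per the file headers.

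Expected counts were rounded, filtered with filterByExpr (minimum count 10, minimum total 15), TMM-scaled and tested by the quasi-likelihood method of edgeR 4.0.16, with group as the only term and Benjamini-Hochberg adjustment at 0.05 over all tested genes. The standard error is the size of the log2 fold change divided by the root of F. The fits were tested on simulated data. Software was Python 3.11.15 and R 4.3.3 with DESeq2 1.42.0 and limma 3.58.1. Of the 58870 gene identifiers, 99.5% matched GENCODE 29 (GRCh38); DDX58 was matched to RefSeq as RIGI. Alternatives were other scalings, filters and tests, limma on TPM with pseudocounts of 1 and 0.1, GC-trend offsets, protein-coding genes alone, a replicate block and leaving out each library.

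The members, the lists and the tests were chosen with earlier results of these data known. Named beyond the members were at most 4 genes by adjusted p for each list and direction, and IFNB1, IFNAR1, IFNAR2, JAK1, TYK2 and IRF3. The values of some genes of the rule and lists are not reported here.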

Additional observations from a re-analysis of the deposited data

How the results depend on the processing

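With 2 libraries in each group, the removal of 1 leaves a lone library that is assumed to vary like the other group. The median log2 fold change of the 29 genes was 0.42 with limma on log2(TPM + 1) and ran from 0.79 to 0.85 under the other alternatives that kept all libraries, and from 0.78 to 0.99 when 1 was left out. The median of all genes moved to 0.13 with limma on log2(TPM + 0.1) and to 0.12 with no filter. With limma on log2(TPM + 1), log2(TPM + 0.1) and glmTreat the members higher were 6, 9 and 13; all genes higher were 596, 637 and 787 and lower 198, 198 and 480; the second list of interferon-induced genes had 4, 4 and 4 higher and 0, 0 and 2 lower; and the pathway lists had 1, 2 and 1 higher and 0, 0 and 0 lower. With GC-trend offsets, 3816 of all genes, 10 of the second list and 10 of the pathway lists were lower and 18 of the pathway lists higher. Leaving out 1 library gave 1304 to 4667 genes higher and 906 to 4967 lower; 15 to 22 members higher and 0 to 1 lower; 15 to 42 of the second list higher and 2 to 15 lower; and 4 to 21 of the pathway lists higher and 1 to 15 lower. Without Dox replicate 1, IRF3 (0.20), LGALS3BP (0.11) and CNP (0.11) turned to higher, and without Dox replicate 2 they stood at -0.33, -0.30 and -0.23. The cause was not tested. With the replicate number as a replicate block, 2972 genes were higher and 2511 lower, and 21 members were higher. The labels do not tie the 2 numbers to a shared culture and the same-numbered libraries hardly deviated together (correlation 0.042), so the numbers were not taken as pairs. The depth limits OASL, RSAD2, CMPK2 and ISG20, which held at most 38 counts in a library.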
